A study of Mus musculus with 4 samples.

Results

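The genes examined were 10 genes of the goblet cell secretory programme, chosen by name: Muc2, Tff3, Agr2, Fcgbp, Clca1, Spdef, Zg16, Spink4, Guca2a and Guca2b. All 10 were found among the 29161 genes of the deposited count table, which covers 290 single cells. The cells came from enteroids, that is, cultured epithelial organoids, which were kept in Matrigel with B27, N-acetyl-L-cysteine, EGF, noggin and R-spondin-1 and derived from the small intestine of female CD1 mice that carried the Neurog3eYFP/+ reporter genotype. Living eYFP-positive cells were sorted at 1 cell per well, so that every cell had passed a gate on the reporter of Neurog3, the transcription factor gene that starts the enteroendocrine programme, and no eYFP-negative cell was profiled. Plates 1, 2 and 3 were duodenum replicates 1, 2 and 3, from mice of 39, 12 and 12 weeks, and held 72, 83 and 72 cells. Plate 4 was jejunum replicate 1, from 12 weeks, and held 63 cells. The labels do not say how many mice a plate drew on, so a p-value here measures the spread between plates. The question put to the data was which sorted cells carried goblet genes, whether they carried them together, and how this overlapped with Neurog3, with the endocrine granule gene Chgb and with the Paneth cell genes Lyz1 and Defa24.

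Goblet cells, Paneth cells and enteroendocrine cells are the secretory lineages of the small intestinal epithelium, and they descend from shared progenitors that activate Atoh1. Goblet cells make the mucus layer: they build the gel-forming mucin in the endoplasmic reticulum and Golgi, store it in granules and release it to the lumen. Paneth cells sit at the crypt base and secrete lysozyme and defensins, whereas enteroendocrine cells depend on Neurog3 and store hormones with chromogranins.

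The members fall into groups by role. Of the structural and mucus-associated proteins, Muc2 (ENSMUSG00000025515, GRCm38 chromosome 7, 141690340 to 141754693, plus strand) encodes the gel-forming mucin, and GENCODE marks its model as a fragmented locus, so reads of its missing parts would not be counted. Fcgbp (ENSMUSG00000047730, chromosome 7, 28071236 to 28120862, plus) encodes a large mucus protein, and Clca1 (ENSMUSG00000028255, chromosome 3, 145003817 to 145032776, minus) a secreted metalloprotease of the mucus. Zg16 (ENSMUSG00000049350, chromosome 7, 127050156 to 127087328, minus) encodes a lectin that binds bacteria in mucus, and Tff3 (ENSMUSG00000024029, chromosome 17, 31125306 to 31129646, minus) a trefoil peptide secreted with it. Agr2 (ENSMUSG00000020581, chromosome 12, 35992907 to 36004087, plus) encodes a disulfide isomerase of the endoplasmic reticulum needed to make mucin. Spdef (ENSMUSG00000024215, chromosome 17, 27714352 to 27728955, minus) encodes an ETS transcription factor of goblet and Paneth maturation. Spink4 (ENSMUSG00000028415, chromosome 4, 40920052 to 40931395, plus) encodes a small peptide with a Kazal-type inhibitor fold. Guca2a (ENSMUSG00000023247, chromosome 4, 119637704 to 119639471, plus) and Guca2b (ENSMUSG00000032978, chromosome 4, 119656607 to 119658954, minus) encode guanylin and uroguanylin, ligands of the guanylate cyclase receptor encoded by Gucy2c. Both are protein coding, as are all the members, and they face each other with 17135 bases between them.

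Because the members were read together in the same cells, the stretches before the starts of a few of them are shown. RefSeq entries for GRCm38.p6 matched 6 of the 10 members, and the 4 printed here are Muc2, Fcgbp and the neighbours Guca2a and Guca2b, each as the 150 bases before its RefSeq start on the gene's own strand. They are chr7:141690190-141690339 (plus) for Muc2, chr7:28071086-28071235 (plus) for Fcgbp, chr4:119637582-119637731 (plus) for Guca2a and chr4:119658946-119659095 (minus) for Guca2b, and the last pair overlap the first bases of the GENCODE gene. Capitals mark matches on either strand to GATAA, the core that GATA factors bind, to GTTAAT, a HNF1 half-site, to the palindromic E-box CAGCTG, and to the TATA-box core TATAA, and none of these motifs contains another.
Muc2: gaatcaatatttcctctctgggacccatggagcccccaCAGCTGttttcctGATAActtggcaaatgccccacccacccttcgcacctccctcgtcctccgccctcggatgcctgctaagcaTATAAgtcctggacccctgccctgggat
Fcgbp: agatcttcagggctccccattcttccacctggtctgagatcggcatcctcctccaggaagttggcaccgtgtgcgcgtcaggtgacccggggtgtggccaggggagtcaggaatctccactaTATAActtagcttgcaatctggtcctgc
Guca2a: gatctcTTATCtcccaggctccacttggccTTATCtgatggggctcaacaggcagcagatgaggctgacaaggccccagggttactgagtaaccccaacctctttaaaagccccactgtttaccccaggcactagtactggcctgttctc
Guca2b: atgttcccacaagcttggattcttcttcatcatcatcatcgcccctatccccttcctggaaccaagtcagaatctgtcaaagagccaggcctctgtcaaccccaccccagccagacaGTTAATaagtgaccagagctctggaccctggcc
Over 32851 RefSeq promoter windows of the same length, 13.3% held the GATA core, 3.71% the HNF1 half-site, 8.39% the E-box and 14.2% the TATA-box core on either strand. Muc2 held the GATA core, the E-box and the TATA-box core, Guca2a the GATA core on the opposite strand at 2 places, Fcgbp the TATA-box core and Guca2b the HNF1 half-site. No motif was found in all 4 windows, and a match describes letters only.

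Plate totals ran from 23893272 counts (plate 1) to 46490618 (plate 4), and single cells held 202711 to 2312044 counts. Low counts were not informative for the abundant members. Tff3 had at least 5 counts in 100% of the 290 cells, Spink4 in 95.9% and Fcgbp in 95.2%, so for Tff3 every Chgb-high cell was included. In the Chgb-high cells that were positive for none of Tff3, Fcgbp and Spink4 (27, 39, 27 and 30 cells of plates 1 to 4), the median Tff3 level was 557, 164, 130 and 106 counts per 1000000 counts of a cell or sum (CPM). In cells positive for all 3 genes (18, 20, 11 and 11 cells) it was 20400, 21900, 25700 and 15900 CPM, at median depths of 360518, 442290, 667151 and 653224 counts, against 367678, 462311, 417485 and 758002 in the former. Fcgbp counts per Tff3 count were 0.0927, 0.179, 0.129 and 0.0985 in those Chgb-high cells and 0.208, 0.205, 0.221 and 0.198 in the whole plates. Spink4 counts per Tff3 count were 0.0933, 0.154, 0.182 and 0.386 against 0.533, 0.160, 0.238 and 0.359, so that plates 2 and 4 were close to the whole plate and plate 1 far below it. The source of these low counts was not tested. A cell is therefore called positive for a gene here when it holds at least 5 counts and at least 0.5% of the counts of that gene on its plate.

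The mucus structure genes differed in how many cells were called positive for them, each by a limit relative to its own plate counts. Muc2 was positive in 9 of 72, 6 of 83, 6 of 72 and 2 of 63 cells of plates 1 to 4, 7.93% of all cells (exact 95% interval 5.09 to 11.7). Over the whole plates it made up 55.0, 13.4, 40.3 and 17.0 CPM, and its 3 highest cells held 71.9%, 66.0%, 87.0% and 97.9% of those counts. Plates 1 and 3 were thus above plates 2 and 4, and in each plate a few cells supplied most of the transcript. Fcgbp was positive in 33, 26, 19 and 19 cells, 33.4% of all (28.0 to 39.2), at plate levels of 1680, 1500, 1600 and 792 CPM. The jejunum plate had the lowest Fcgbp level, and the 3 duodenum plates lay close together. Zg16 was positive in 0, 2, 1 and 1 cells. In plate 1 it had 0 counts in 72 cells, which allows up to 0.126 CPM for the plate, and the other plates were at 27.1, 22.5 and 9.38 CPM. Clca1 was almost undetected, with 3, 0, 8 and 0 counts per plate and 1 positive cell, on plate 3, that held 7 of them. A count of 0 allows up to 0.0784 CPM of Clca1 on plate 2 and 0.0645 CPM on plate 4, for counting error only.

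Tff3 was positive in 28, 32, 22 and 20 cells, 35.2% of all (29.7 to 41.0), with plate levels of 8060, 7300, 7240 and 4000 CPM. Its single-cell level ranged from 18.4 to 72100 CPM without an empty stretch, so that 55 cells lay between 0.25% and 1% of their plate's counts, around the limit that calls a cell positive. For Fcgbp 44 cells lay there, for Spink4 43, and for Muc2 0. Agr2 was positive in 14, 8, 9 and 6 cells (12.8% of all, 9.14 to 17.2) at 293, 102, 412 and 60.8 CPM, and its 3 highest cells held 85.3% to 91.8% of the counts on plates 2, 3 and 4 but 38.9% on plate 1. Spdef was positive in 5, 3, 5 and 0 cells (4.48%, 2.41 to 7.54) at 24.4, 3.55, 5.68 and 0.043 CPM, the jejunum value being 2 counts in all. Spink4 was positive in 20, 27, 18 and 18 cells (28.6%, 23.5 to 34.2) at 4300, 1170, 1720 and 1440 CPM, highest on plate 1. Guca2a was positive in 11, 8, 6 and 6 cells (10.7%, 7.38 to 14.8) at 903, 122, 340 and 253 CPM, and Guca2b in 16, 11, 7 and 9 cells (14.8%, 10.9 to 19.4) at 729, 132, 122 and 89.1 CPM. Both guanylin genes were highest on plate 1. By share of positive cells the pooled intervals of Tff3, Fcgbp and Spink4 overlapped one another and lay above those of the other 7 members. Such intervals pool the cells of all plates and leave out the spread between plates. The limit for a positive call is also a share of each gene's own plate counts, which on plate 1 were 192461 for Tff3 and 1315 for Muc2. The shares of different genes thus rest on unlike expression limits and cannot rank the genes by how widely they were expressed.

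**Figure D1:**
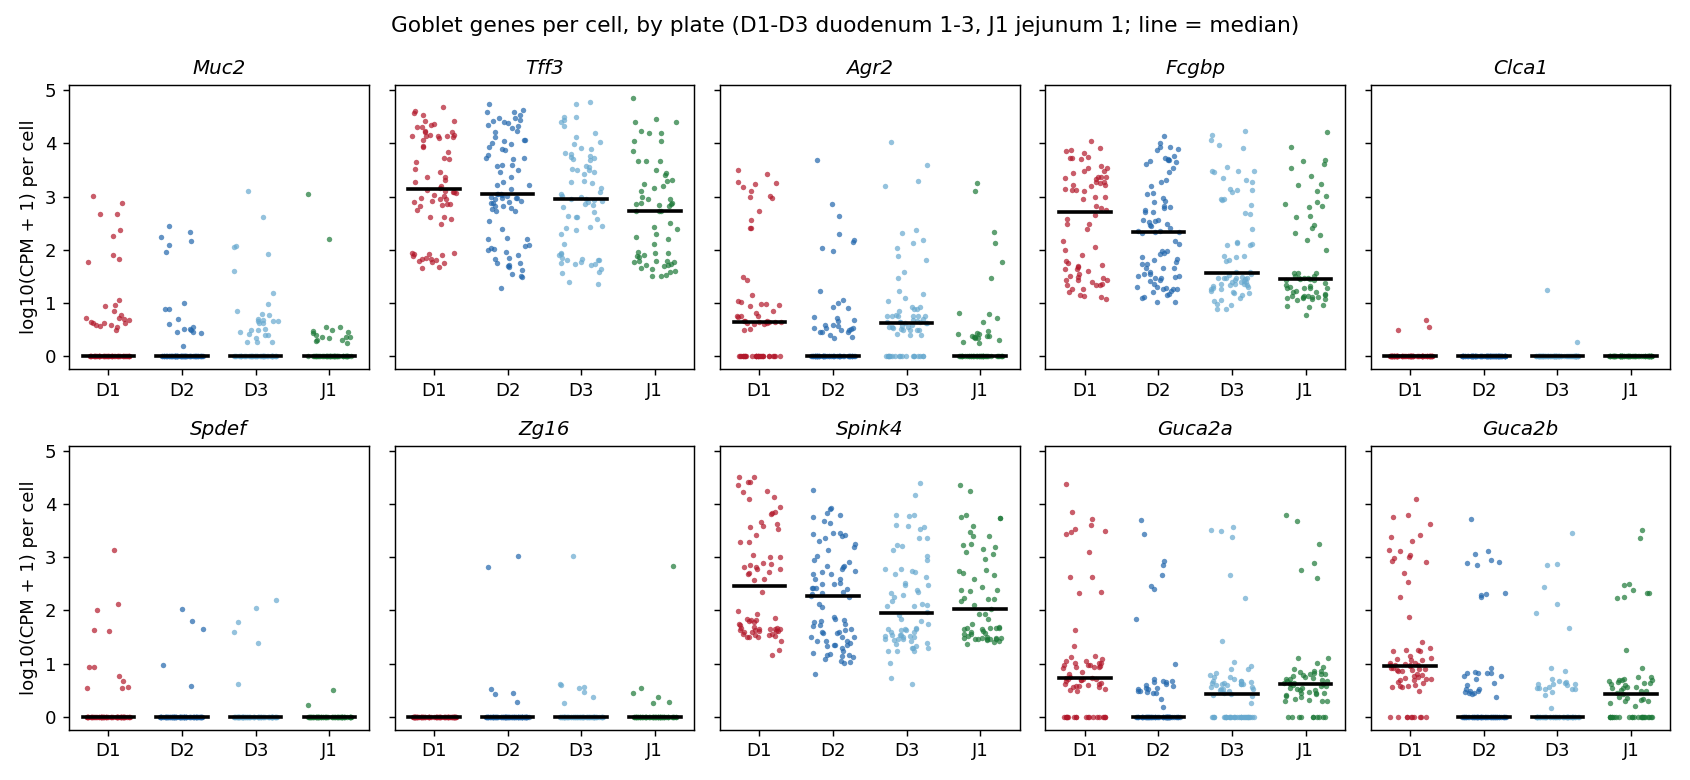
Level of each of the 10 goblet genes in each of 290 cells, as log10(CPM + 1), by plate (D1 to D3, duodenum replicates 1 to 3; J1, jejunum replicate 1), with the median as a line. Tff3, Fcgbp and Spink4 have counts in every cell and spread over several log10 units, whereas Muc2, Zg16, Spdef, Guca2a and Guca2b are high in a few cells, and Clca1 stays near 0.

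The members were carried by the same cells to different degrees. No member was positive in 141 of 290 cells (48.6%), 1 in 49, 2 in 30, and 3 or more in 70 cells (24.1%, exact 95% interval 19.3 to 29.5). The share with 3 or more was 29.2%, 26.5%, 19.4% and 20.6% in plates 1 to 4, and their intervals overlapped. At the upper end 23 cells were positive for 6 or more members, 12 of them on plate 1, and 4 cells for 8, the highest number reached. Tff3, Fcgbp and Spink4 formed the common core: 134 cells were positive for any of them and 60 for all 3. Of the 102 Tff3-positive cells, 75 were Fcgbp-positive (73.5%), which was 77.3% of the 97 Fcgbp-positive cells. Of 83 Spink4-positive cells, 68 were Fcgbp-positive (81.9%) and 65 Tff3-positive (78.3%).

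The rarer members lay mostly inside this core. Among the 23 Muc2-positive cells, 21 were positive for Fcgbp, 21 for Spink4 and 19 for Tff3, and among all cells those genes were positive in 33.4%, 28.6% and 35.2%. Guanylin and uroguanylin overlapped in 26 cells, 83.9% of the 31 Guca2a-positive and 60.5% of the 43 Guca2b-positive cells. Over cells of 1 plate, the Pearson correlation of their log2(CPM + 10) values was 0.76, 0.59, 0.92 and 0.56 in plates 1 to 4. This is a description over cells of 1 plate that share a library and differ in depth. For Fcgbp and Spink4 it was 0.77, 0.79, 0.77 and 0.63, for Tff3 and Fcgbp 0.63, 0.73, 0.71 and 0.72, and for Muc2 and Spink4 0.57, 0.46, 0.55 and 0.39. The median over the 45 pairs of members was 0.28. Agr2 varied between plates: with Guca2b it reached 0.71 and 0.70 on plates 1 and 3 but 0.022 and -0.081 on plates 2 and 4. Spdef had low mean correlations, 0.08 with Muc2 and 0.11 with Tff3, and reached 0.46 with Guca2b and 0.43 with Agr2 on plate 1, where 12 cells had any Spdef count against 5, 6 and 2 on plates 2 to 4. By positive cells it still lay with the core: of its 13 cells 84.6% were Spink4-positive, and 69.2% each Tff3-positive and Fcgbp-positive.

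**Figure D2:**
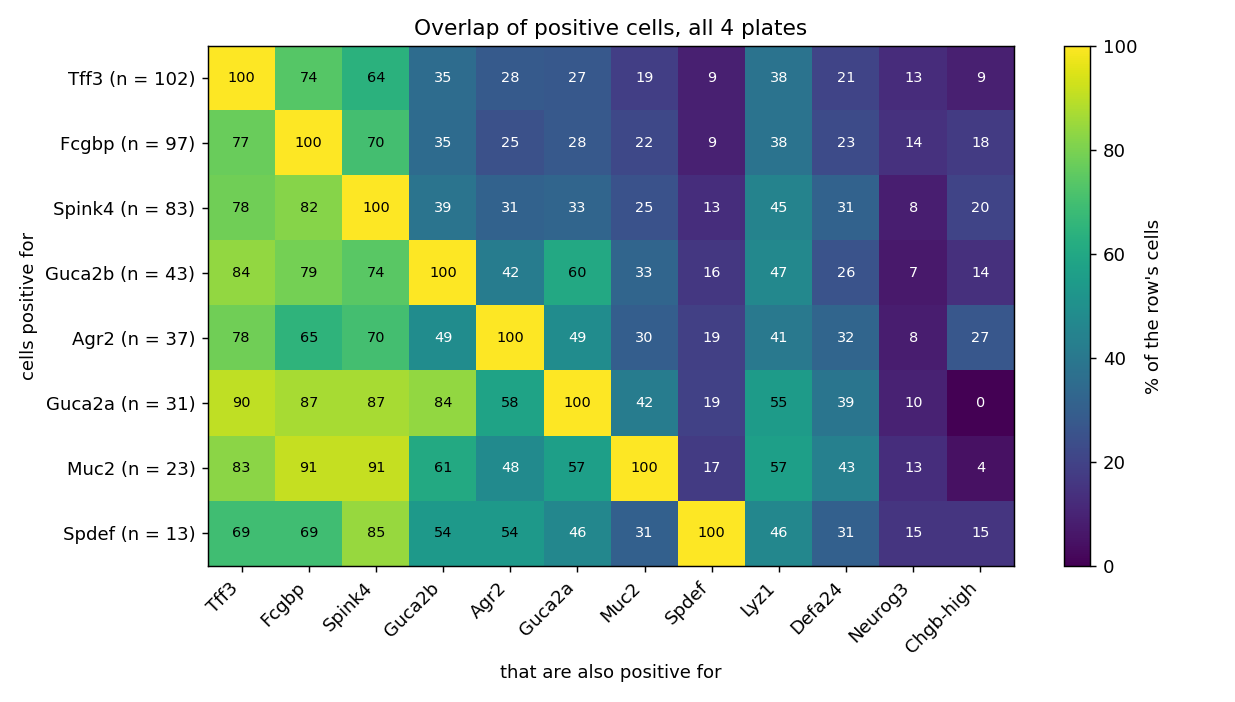
Percentage of the cells positive for the gene of a row that are also positive for the gene of a column, over 290 cells, with the number of positive cells beside each row name. Muc2-positive and Guca2a-positive rows are high under Tff3, Fcgbp and Spink4, and of the 8 genes drawn as rows none exceeds 15.4% under Neurog3 or 27.0% under Chgb-high. Of all cells 17.2% are Neurog3-positive and 52.1% Chgb-high, so the highest Neurog3 values lie near the share of all cells. Zg16 (4 positive cells) and Clca1 (1) are not drawn.

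Single cells with the rare members show the combinations directly. All 4 Zg16-positive cells were also Muc2-positive and carried 6 to 8 members. The plate 3 cell among them held 1070 CPM of Zg16, 1300 of Muc2, 55600 of Tff3, 10700 of Agr2, 17000 of Fcgbp and 14700 of Spink4, with Chgb at 142 CPM. The jejunum cell held 682 CPM of Zg16, 161 of Muc2 and 25200 of Tff3, but 1.58 of Agr2 and 0 of Guca2a. The only Clca1-positive cell, with 7 counts, carried 110 CPM of Muc2, 38.3 of Spdef and 2210 of Defa24. Of the 13 Spdef-positive cells, 4 were Muc2-positive. The 2 that were Chgb-high, both on plate 3, held 27700 and 9800 CPM of Chgb and 77.3 and 130 CPM of Tff3.

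Chgb, encoding the granule protein chromogranin B, divided the cells. With a limit of 2000 CPM, 28, 46, 33 and 44 cells of plates 1 to 4 were Chgb-high and 44, 37, 39 and 19 Chgb-low, and 20 cells lay between 1000 and 4000 CPM. Tff3 made up 634, 651, 908 and 508 CPM of the summed Chgb-high cells and 13400, 15600, 11800 and 15200 CPM of the Chgb-low cells, so the classes did not overlap across plates. Guca2a was at 4.98, 0.613, 1.85 and 3.30 CPM against 1550, 273, 581 and 1060 CPM, again without overlap. Fcgbp was at 120, 232, 337 and 129 CPM in Chgb-high cells and at 2810, 3070, 2490 and 2920 CPM in Chgb-low cells. Spink4 was at 69.7, 145, 210 and 558 CPM against 7360, 2440, 2800 and 4250 CPM, with the jejunum Chgb-high cells the highest of their class.

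Across all 12678 genes tested with edgeR's quasi-likelihood test and plate as a block, 504 (3.98%) passed a Benjamini-Hochberg adjusted p of 0.05, 189 higher (1.49%) and 315 lower (2.48%) in Chgb-high cells. Of the 10 members 8 were measured well enough to be tested, and 6 of these were lower, none higher. The members passed through counts of the class where they are high, so that their count is no support by itself. The median log2 fold change was -4.75 over the 8 and 0.08 over all genes tested. Guca2a was lower by a log2 fold change of -8.80 (95% interval -9.39 to -8.21, adjusted p = 0.000381), and Tff3 by -4.80 (-5.32 to -4.28, adjusted p = 0.00148). Fcgbp followed with -4.32 (-5.06 to -3.59, adjusted p = 0.00367) and Guca2b with -5.60 (-7.07 to -4.13, adjusted p = 0.00804). Spink4 had -4.70 (-6.36 to -3.03, adjusted p = 0.0219) and Muc2 -6.32 (-8.58 to -4.06, adjusted p = 0.0224). All 6 were lower in 4 of 4 plates.

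Agr2 (-4.19, -8.53 to 0.15, adjusted p = 0.255) and Spdef (-3.66, -8.78 to 1.46, adjusted p = 0.377) did not pass, but both passed with DESeq2, which called 2591 genes (20.4%), at adjusted p = 0.0124 and 0.035. Agr2 was lower in Chgb-high cells on plates 1, 3 and 4, but on plate 2 it was at 159 CPM in Chgb-high and 32.2 CPM in Chgb-low cells, and 10 of its 37 positive cells were Chgb-high. No Guca2a-positive, Zg16-positive or Clca1-positive cell was found among the 151 Chgb-high cells, which allows up to 1.99% of cells that meet the limits for a positive call and says nothing of lower levels. The calls of Tff3, Fcgbp and Guca2a held in all 13 alternatives tried, with adjusted p up to 0.0283, 0.0418 and 0.0179. Among the 13, a minimum of 5 cells of each class kept every plate and so repeated the main fit. The size of the fold changes depended on the method. With limma on mean log2(CPM + 10), where each cell counts alike, Guca2a stood at -1.64, Muc2 at -0.66, Guca2b at -1.45 and Spink4 at -2.69. Tff3 stood at -4.11 and Fcgbp at -3.29. This setting changes the scale as well as the weight of cells. The median cell held 1.58 and 3.09 CPM of Guca2a in Chgb-high and Chgb-low cells, under the added 10 CPM. The parts of weight and scale were not tested. Muc2 lost its call without plate 1 (adjusted p = 0.107), plate 3 (0.110) or plate 4 (0.0724), Spink4 without plate 2 (0.127) or 3 (0.101), and Guca2b without plate 1 (0.0524) or 2 (0.0507). The calls also depended on the Chgb limit: at 1000 CPM Spink4 (adjusted p = 0.0644) and Guca2b (0.110) no longer passed, and at 4000 CPM Agr2 did (0.0358).

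Paneth genes differed in the same contrast. Defa24 was lower in Chgb-high cells (log2 fold change -4.96, adjusted p = 0.0109), Lyz1 had -3.71 (adjusted p = 0.0554), and 3 of the 10 tested genes of a 14-gene Paneth list passed, all lower: Defa17, Ang4 and Defa24. The summed Paneth list was at 482 to 1710 CPM in Chgb-high and 3220 to 13900 CPM in Chgb-low cells. When the comparison was restricted to cells positive for neither Lyz1 nor Defa24, an alternative chosen after seeing the data, 283 genes passed, Tff3 stood at -4.75, Fcgbp at -4.39, Guca2a at -7.47, Guca2b at -4.14 and Spink4 at -4.19, all past the threshold, and Muc2 at -5.34 with an adjusted p of 0.211. Agr2 moved from -4.19 to -2.0 (adjusted p = 0.512). Cells under the limits for Lyz1 and Defa24 can still hold counts of Paneth genes. Chgb-high cells were the deeper class, with a median of 474939 counts against 374867. Stem cell markers were at 105 to 365 CPM in Chgb-high and 88.3 to 145 CPM in Chgb-low sums, and enterocyte markers at 73.5 to 490 CPM and 137 to 315 CPM, of which Rbp2, a retinol-binding protein gene, was higher in Chgb-high cells (5.69, adjusted p = 0.0237). Markers of other cells were low, the tuft list at up to 7.62 CPM, the leukocyte list at up to 13.5 CPM and the fibroblast list at up to 17.0 CPM in any sum of either class. Of the 14 other enteroendocrine markers 8 were higher in Chgb-high cells, among them Tph1, the enzyme of serotonin synthesis (6.83, adjusted p = 0.00200), and Chga (2.95, adjusted p = 0.00683).

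**Figure D3:**
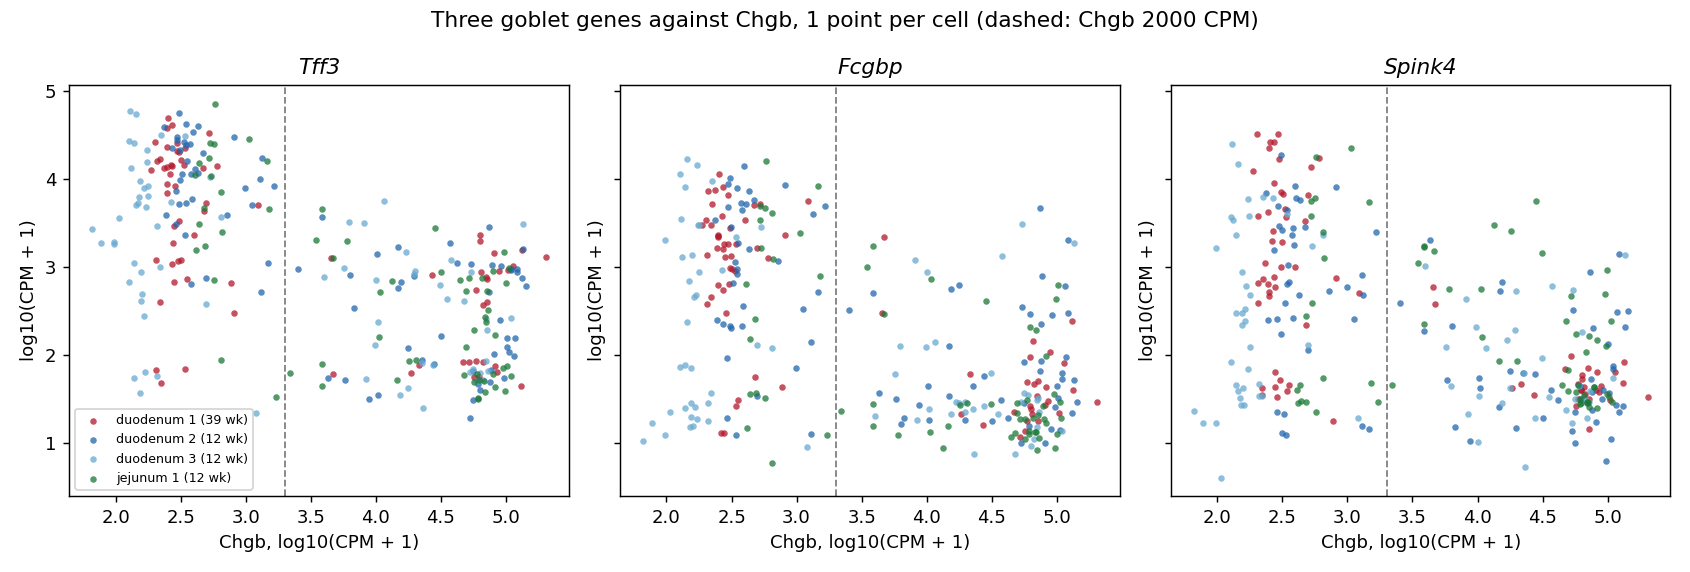
Tff3, Fcgbp and Spink4 against Chgb in each of 290 cells, both as log10(CPM + 1) and coloured by plate, with the 2000 CPM limit dashed. High values of the 3 goblet genes lie left of the line, the low values lie on both sides, and few cells occupy the upper right.

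Few cells combined the core with high Chgb. Of the 134 cells positive for Tff3, Fcgbp or Spink4, 28 were Chgb-high, namely 1, 7, 6 and 14 cells of plates 1 to 4, and 4 of the 60 cells with all 3 were Chgb-high, 1 on plate 3 and 3 on plate 4. Those 4 held 3130, 2050, 4580 and 2760 CPM of Tff3 beside 135000, 3480, 3850 and 28400 CPM of Chgb. Their Tff3 was below the medians of 15900 to 25700 CPM of all cells with the 3 genes, and their total counts were 632905 to 899983. Over all plates the median depth was 622356 counts in cells with Chgb and any of the 3, 461156 in cells with Chgb alone and 393012 in cells with the goblet genes alone. These medians mix plates of unlike depth. By plate, cells with Chgb and any of the 3 had medians of 281516, 415376, 645916 and 828319 counts. Cells with Chgb alone had 367678, 462311, 417485 and 758002, so the former were shallower on plates 1 and 2 and deeper on plates 3 and 4. Whether a well held more than 1 cell was not tested. A further 33 cells, 16 of them on plate 3, were neither Chgb-high nor positive for any of the 3.

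Cells were next divided by Neurog3 itself. At least 5 counts were found in 7, 12, 24 and 7 cells of plates 1 to 4, 50 in all, of which 26 were Chgb-high (52.0%, against 52.1% of all cells). By plate these were 4, 7, 11 and 4 cells, where 28 of 72, 46 of 83, 33 of 72 and 44 of 63 cells were Chgb-high. Of these 50 cells 13 were Tff3-positive (26.0%), 14 Fcgbp-positive (28.0%) and 7 Spink4-positive (14.0%), and 7 were positive for all 3 genes. Tff3 made up 2910, 9390, 5160 and 6070 CPM of the summed Neurog3-positive cells and 8670, 6980, 7980 and 3800 CPM of the others, higher on plates 2 and 4 and lower on plates 1 and 3. Fcgbp was at 685, 3090, 1130 and 556 CPM against 1800, 1250, 1770 and 816 CPM. Spink4 was at 110, 2000, 792 and 4500 CPM against 4790, 1040, 2060 and 1130 CPM. The order of these sums therefore depended on the plate for all 3. Single cells carried much of them: on plate 4 one Neurog3-positive cell held 91.5% of the class's Tff3 counts, and for Spink4 1 cell held 97.7%. The median cell had less Tff3 among Neurog3-positive cells on all 4 plates (898, 810, 595 and 523 CPM against 1460, 1410, 1070 and 600 CPM). Median Fcgbp was likewise lower on all 4 (109, 49.2, 28.1 and 14.0 CPM against 620, 217, 61.4 and 27.5 CPM), and median Spink4 on plates 1, 2 and 3 but not on plate 4 (162 against 96.5 CPM).

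With edgeR's quasi-likelihood test 3 of 12438 genes (0.0241%) passed, the hormone genes Gcg, Cck and Ghrl, all lower in Neurog3-positive cells, and 0 of the 9 members tested did. With an unadjusted p under 0.05 there were 2 members, Agr2 and Guca2b, among 858 genes in all, and with DESeq2, which called 804 genes (6.46%), both passed (adjusted p = 0.000302 and 0.00573). The edgeR log2 fold change was -0.21 (95% interval -1.16 to 0.75) for Tff3, -0.29 (-1.30 to 0.73) for Fcgbp and -0.52 (-3.61 to 2.57) for Spink4, beside a median of -0.55 over all genes tested. Agr2 had -3.52 (-5.26 to -1.77, adjusted p = 0.398), Guca2b -3.62 (-6.57 to -0.67, adjusted p = 0.572) and Muc2 -2.68 (-7.45 to 2.09). The intervals leave room for a difference in either direction for Tff3, Fcgbp, Spink4 and Muc2. Neurog3, which defines the class, did not pass in this fit either (9.15, adjusted p = 0.0670).

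Several of the cells with the most Neurog3 nevertheless carried the goblet core. The cell with the highest Neurog3 level of all, 2950 CPM on plate 2, held 24900 CPM of Tff3, 5400 of Fcgbp and 2330 of Spink4, and 373 CPM of Chgb. Another plate 2 cell held 2190 CPM of Neurog3 with 30100 of Tff3, 8560 of Fcgbp, 8100 of Spink4 and 122 of Muc2. A further plate 2 cell, with 1500 CPM of Neurog3, was positive for 8 members, Zg16 and Muc2 included. On the same plate, the cells with 2540 and 1630 CPM of Neurog3, which rank between these, were Chgb-high, with 77600 and 6390 CPM of Chgb, 1050 and 819 CPM of Tff3, and 1 and 0 positive members. On plates 1, 3 and 4 the cells highest in Neurog3, at 401, 1100 and 454 CPM, were positive for 0 members. The remaining cells with Neurog3 and all 3 core genes, 3 on plate 3 and 1 on plate 4, held 12.4 to 116 CPM of Neurog3.

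Paneth genes and goblet genes shared many cells. Lyz1, encoding lysozyme, was positive in 11, 24, 13 and 12 cells of plates 1 to 4, and the alpha-defensin gene Defa24 in 9, 9, 10 and 7, with 17 cells positive for both. Defensin genes are near-identical copies, so the Defa24 counts are uncertain. Of the 60 Lyz1-positive cells 39 were Tff3-positive (65.0%), 37 Fcgbp-positive and 37 Spink4-positive (61.7% each), and of the 35 Defa24-positive cells 26 were Spink4-positive (74.3%). Among all cells Tff3, Fcgbp and Spink4 were positive in 35.2%, 33.4% and 28.6%, and among Chgb-low cells in 66.9%, 57.6% and 47.5%. Among Chgb-high cells they were positive in 5.96%, 11.3% and 11.3%. Of the Lyz1-positive cells 43 were Chgb-low and 17 Chgb-high. Their shares thus mix both classes and are not like for like with those of Chgb-low cells. The part of the Chgb class in this overlap was not tested. Muc2 met Lyz1 in 13 of its 23 cells (56.5%) and Defa24 in 10 (43.5%). In cells positive for Lyz1 or Defa24 (16, 29, 18 and 15 cells), Spink4 made up 13600, 2370, 4060 and 4060 CPM, and in the others 1640, 481, 525 and 607 CPM. The lowest Paneth-gene-positive sum thus lay above the highest of the others. Tff3 was at 16700, 11000, 13600 and 10400 CPM against 5590, 5200, 3960 and 2000 CPM, and Agr2 at 814, 222, 1180 and 187 CPM against 144, 33.9, 20.9 and 20.9 CPM, both without overlap. For Agr2 1 cell supplied 85.5% of the class counts on plate 2 and 99.7% on plate 4, where the share of Agr2-positive cells was 6.67% in the class and 10.4% outside it.

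In the edgeR quasi-likelihood test 1 of 12742 genes (0.00785%) passed beside the defining Lyz1 and Defa24, and it was Spink4, with a log2 fold change of 2.98 (95% interval 2.52 to 3.45, adjusted p = 0.0280), higher in 4 of 4 plates. This call was lost without any of plates 1 to 4 (adjusted p = 0.210, 0.0973, 0.318 and 0.233) and held in 5 of 12 alternatives, while the fold change stayed between 2.86 and 3.32. Among the 5, a minimum of 5 cells of each class kept every plate and so repeated the main fit. Tff3 (1.92, 1.36 to 2.49), Fcgbp (1.81, 1.24 to 2.37), Guca2a (3.56, 2.38 to 4.74) and Agr2 (3.67, 2.08 to 5.26) had adjusted p of 0.192, 0.192, 0.192 and 0.193. With DESeq2, which called 924 genes (7.25%), Muc2, Tff3, Agr2, Fcgbp, Guca2a and Guca2b passed as well. Spdef had -0.16 (-2.44 to 2.11), and its sign turned in 5 of 12 alternatives. The median over the 8 members tested was 3.02, against -0.21 over all genes. Median depth was 429371 and 416408 counts in the classes over all plates, and on plate 3 it was 621551 and 401630. The enteroendocrine list moved the other way, at 9360 to 61000 CPM in Paneth-gene-positive sums and 38600 to 92600 CPM in the others, and its part in the result was not tested.

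**Figure D4:**
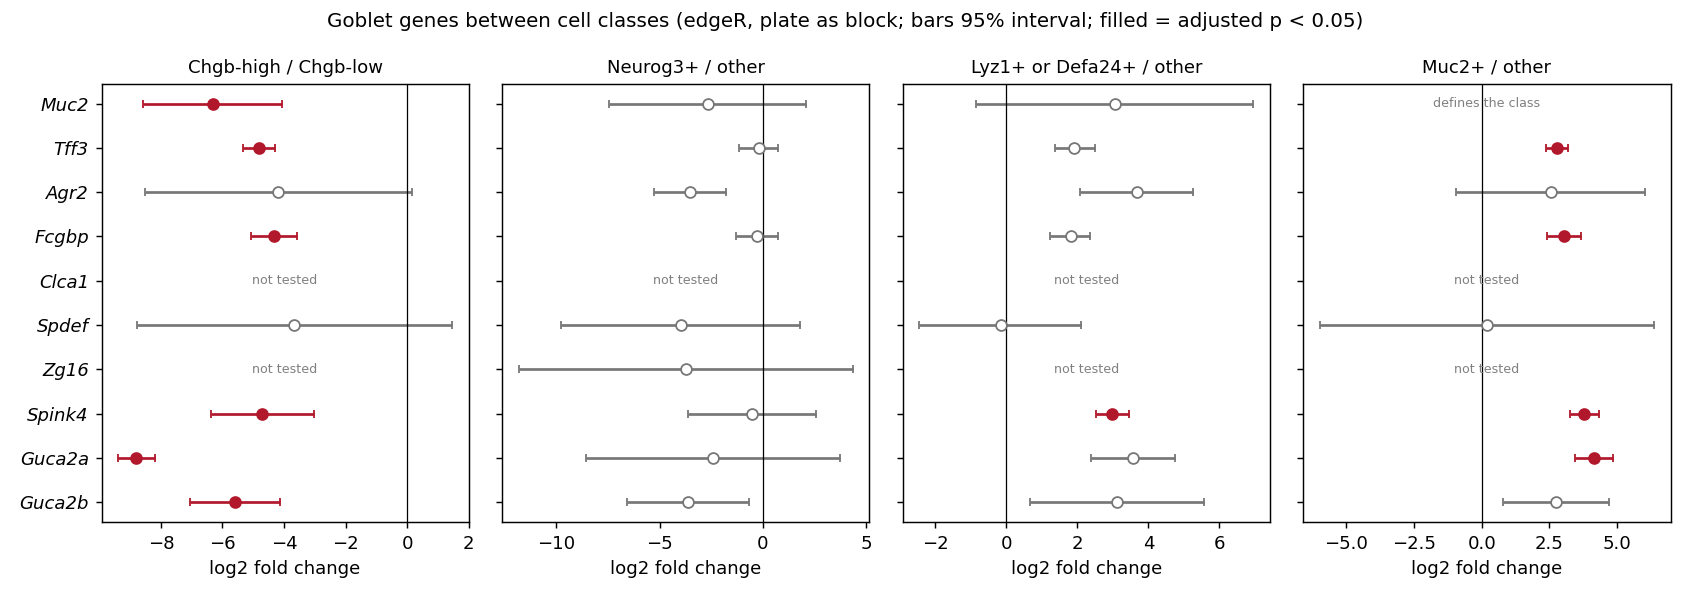
Log2 fold change of each goblet gene in the edgeR comparisons of Chgb-high with Chgb-low, Neurog3-positive with other, Lyz1- or Defa24-positive with other, and Muc2-positive with other cells, with 95% intervals and filled points where the adjusted p was below 0.05. The points lie left of 0 for Chgb, right of 0 for Muc2, and the Neurog3 intervals of Tff3 and Fcgbp span 0.

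Cells with the mucin gene were compared with the rest on plates 1, 2 and 3, which had 9, 6 and 6 Muc2-positive cells, as plate 4 had 2. Of 12192 genes 5 passed (0.041%), all higher in Muc2-positive cells, and 4 of them were members. Of the 9 members other than Muc2, 7 were tested. The class is defined by a member, and the members were chosen together as goblet genes. Their count thus describes shared cells and is no independent support. Spink4 made up 19000, 7300 and 9470 CPM of the Muc2-positive sums and 2040, 677 and 622 CPM of the others (log2 fold change 3.79, 95% interval 3.26 to 4.33, adjusted p = 0.0148 by edgeR). Tff3 was at 25900, 29500 and 29500 CPM against 5320, 5520 and 4080 CPM (2.79, 2.37 to 3.20, adjusted p = 0.0148). Guca2a had 4.14 (3.43 to 4.85, adjusted p = 0.0211) and Fcgbp 3.05 (2.41 to 3.68, adjusted p = 0.0374). The fifth gene was Clps, encoding pancreatic colipase (3.20, adjusted p = 0.0303). All 4 members were higher in 3 of 3 plates, and on the untested plate 4 the 2 Muc2-positive cells together held 48200 CPM of Tff3 against 2790 CPM in the others.

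On plate 3 the Muc2-positive cells had a median depth of 795294 counts against 416908, and over all plates 426845 against 423405. Without plate 1 no gene passed in the Muc2 comparison, and the adjusted p was 0.249 for Tff3, Fcgbp and Spink4 and 0.465 for Guca2a. Without plate 3 Fcgbp lost its call (0.0744). Guca2a passed in 7 of 11 alternatives, and also failed at 100 CPM of Muc2 (0.233), with limma on cells weighted alike (0.339) and without the block (0.139). Among the 11, the limit of 1% of plate Muc2 counts and the minimum of 5 cells kept the same cells and plates. Both therefore repeated the main fit, and their passes add no support. Guca2b (2.75, adjusted p = 0.315), Agr2 (2.55, -0.93 to 6.02, adjusted p = 0.632) and Spdef (0.19, -5.96 to 6.35) did not pass. Agr2 was at 1150 and 2560 CPM in the Muc2-positive sums of plates 1 and 3, above the 161 and 107 CPM of the others, but at 33.9 CPM against 108 on plate 2. The sole Chgb-high cell among the 23, on plate 2, held 88.8 CPM of Muc2 and 142000 of Chgb, with 615 CPM of Tff3 and 1 positive member. The Paneth list was at 20700, 9270, 44300 and 3510 CPM in Muc2-positive sums of plates 1 to 4. In the others it was at 6440, 1100, 1020 and 4170 CPM. It was thus higher in Muc2-positive sums on plates 1, 2 and 3, but lower on plate 4, with 2 such cells. The enteroendocrine list was at 833 to 26600 CPM in Muc2-positive sums and at 32700 to 87200 CPM in the others. All 15 of its genes had negative log2 fold changes (median -4.70), 10 at an unadjusted p under 0.05 and 0 past the adjusted threshold with edgeR, and the part of either list in the result was not tested.

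The number of members per cell was compared between the same classes. The share of cells positive for 3 or more members was 0%, 0%, 3.03% and 6.82% among Chgb-high cells of plates 1 to 4 and 47.7%, 59.5%, 33.3% and 52.6% among Chgb-low cells, 4 of 151 against 66 of 139 cells in all. The 0 of 28 and 0 of 46 Chgb-high cells of plates 1 and 2 allow up to 12.3% and 7.71% by the exact 95% interval. The mean difference was -45.8 percentage points (SD 12.0, n = 4 plates), lower in 4 of 4 plates. Among cells positive for Lyz1 or Defa24 the share was 62.5%, 44.8%, 50.0% and 60.0%, against 19.6%, 16.7%, 9.26% and 8.33% in the others, a mean difference of 40.9 points (SD 9.73, n = 4), higher in 4 of 4 plates. Neurog3-positive cells had 14.3%, 25.0%, 12.5% and 14.3% against 30.8%, 26.8%, 22.9% and 21.4%, a mean difference of -8.95 points (SD 6.15, n = 4), lower in 4 of 4. In each of the 3 comparisons the two-sided exact sign-flip permutation test gave p = 0.125 (0.125 after Benjamini-Hochberg adjustment over the 3), which is the smallest value that 4 plates allow. The difference for Neurog3 was small beside the intervals of single plates, such as 5.49% to 57.2% for its 12 cells on plate 2.

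**Figure D5:**
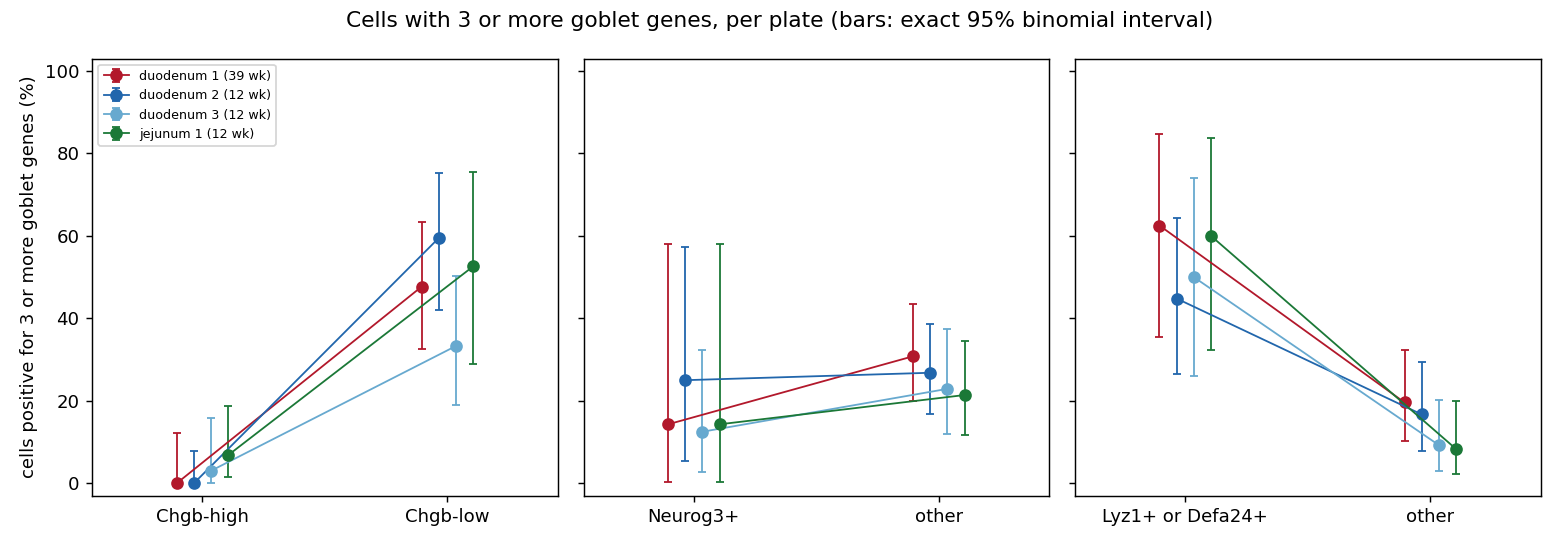
Percentage of cells positive for 3 or more of the 10 goblet genes inside and outside each class, 1 line per plate, with exact 95% binomial intervals that cover counting error only. All 4 lines rise steeply from Chgb-high to Chgb-low, fall from Lyz1- or Defa24-positive to other cells, and rise less for Neurog3.

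Beyond the members, the genes that varied most like them were found by the correlation over the cells of a plate between each gene and the mean log2(CPM + 10) of the 10 members, averaged over plates, among 10038 genes with 5 or more counts in at least 3 cells of at least 3 plates. The nearest were Ang5 (0.61), Phgr1 (0.53), Anxa13 (0.50), Bhlha15 (0.50), Clps (0.49), Tspan8 (0.49), Ifitm3 (0.48) and Gm32899 (0.48), followed by the pseudogenes Rpl39-ps and Rps19-ps6 (0.47 each). Ang5 encodes an angiogenin-family ribonuclease and Bhlha15, also called Mist1, a transcription factor of secretory cells. For Ang5 the plate values were 0.70, 0.51, 0.52 and 0.69, and for Bhlha15 0.45, 0.54, 0.69 and 0.31. The members themselves, which are part of the mean, reached 0.84 (Spink4), 0.81 (Fcgbp and Tff3), 0.75 (Guca2a), 0.69 (Guca2b), 0.62 (Muc2), 0.54 (Agr2) and 0.30 (Spdef).

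A list of 59 other goblet genes covers mucin glycosylation, granule release, secretory stress and transcription factors. Of these, 56 were in the table and 42 were tested in the Chgb comparison, where 2 were lower in Chgb-high cells and 1 higher, 3 of 42 against 3.98% of all genes tested. At an unadjusted p under 0.05 there were 16 of the 42, against 2620 of all 12678 genes. Those lower were the chemokine gene Ccl9 (-7.42, adjusted p = 0.0397 by edgeR) and Ang4, an antimicrobial ribonuclease also on the Paneth list (-4.20, adjusted p = 0.00941). The receptor gene Gucy2c, whose ligands are the products of Guca2a and Guca2b, was higher (1.36, adjusted p = 0.0450). The median of the list was -0.24, beside 0.08 over all genes, and in the Neurog3, Paneth and Muc2 comparisons 0 of 42, 42 and 45 tested genes passed with edgeR, with 6, 7 and 9 at an unadjusted p under 0.05, where over all genes there were 858, 1143 and 1512. The summed list was at 2660 to 3400 CPM in Chgb-high and 2630 to 6100 CPM in Chgb-low cells, ranges that overlapped. In Muc2-positive sums it was at 4540 to 10600 CPM, against 2490 to 4240 CPM in the others. Lyz1- or Defa24-positive sums were higher on every plate (2890 to 7620 against 2510 to 4200 CPM). All these sums include Ang4, which is also on the Paneth list and was at 759, 102, 984 and 355 CPM over plates 1 to 4. Its part in the differences was not tested. Neurog3-positive sums were lower on every plate (2250 to 2730 against 2680 to 5250 CPM). In these comparisons the list median was 0.47, 0.23 and -1.22, beside -0.80, -0.21 and -0.55 over all genes. The transcription factor genes of the list ranged widely: Atoh1 had counts in 10 cells and Gfi1 in 11, Foxa1 in 129 and Klf4 in 131, Creb3l1 in 203, and Foxa3 and Xbp1 in 241 each.

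Tissue and age each rest on 1 plate on 1 side. All 9 members tested between jejunum and duodenum had a negative log2 fold change (positive for Guca2a, at 0.05, without plate 1, and for Zg16, at 0.02, with every cell weighted alike), from -0.70 for Spink4 to -7.86 for Spdef (95% interval -13.55 to -2.17, adjusted p = 0.934), where the median over all genes was -0.27. Of 19329 genes 0 (0%) passed with edgeR, while 819, Agr2 and Spdef included, were under an unadjusted p of 0.05. DESeq2 called 731 genes (3.78%) and among the members Spdef alone (adjusted p = 0.000842). For Tff3 the fold change was -0.91 (-2.40 to 0.58) and for Fcgbp -1.0 (-2.28 to 0.27). Without the 39-week plate, which leaves plates of 12 weeks alone, they were -0.91 and -1.02, and Spink4 was at -0.07. The jejunum plate held 44 Chgb-high and 19 Chgb-low cells, the duodenum plates 28 and 44, 46 and 37, and 33 and 39. Within Chgb-low cells Tff3 was at 15200 CPM in the jejunum and 13400, 15600 and 11800 CPM in the duodenum. Fcgbp was at 2920 against 2810, 3070 and 2490 CPM, and Spink4 at 4250 against 7360, 2440 and 2800 CPM. Spdef was at 0 against 41.7, 7.79 and 7.04 CPM. The part of this mix of cells in the fold changes was not tested. With 1 plate against 3 a permutation test cannot go below p = 0.25, and tissue cannot be told apart from the mouse and plate of the jejunum sample.

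Between the 39-week plate and the 12-week duodenum plates, 0 of 18480 genes (0%) passed with edgeR, 1412 were under an unadjusted p of 0.05, and with DESeq2 920 passed (4.98%). Guca2b (2.37, 1.34 to 3.41, adjusted p = 0.488), Guca2a (1.78, 0.03 to 3.54, adjusted p = 0.643) and Spink4 (1.40, 0.05 to 2.76, adjusted p = 0.643) had positive log2 fold changes that did not pass, and DESeq2 called these 3 and Zg16. Zg16 had 0 counts in the 39-week plate, so that its fitted value is no bound. It had 1038 and 848 counts on the 12-week plates, of which the 3 highest cells held 99.7% and 99.4%. Tff3 (95% interval -1.43 to 1.42) and Fcgbp (-1.26 to 1.19) lay near 0 in this comparison. Age was compared as 1 plate against 2, so age, mouse and plate cannot be told apart.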

How the data were processed

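Libraries of single sorted cells were prepared on plates with the BD Precise chemistry, which captures polyadenylated RNA and gives each well its own barcode, per the labels' protocols. The counts, in 1 table of genes by wells, were used as deposited by the authors and cover 290 of 368 sorted cells (78.8%). The submitters' processing notes name the build mm10 and the tools bcl2fastq 2.17.1.14, cutadapt 1.10, Bowtie2 2.2.8, STAR 2.5.3a, UMI-tools 0.4.4 and HTSeq 0.6.1, with no role for each. Whether copies were collapsed is not given in the sources used here, and the largest value was 643177, so intervals and limits for a count of 0 (3 counts or cells) cover counting error only. Symbols matched 29120 of 29161 identifiers, and positions are from GENCODE M21 on GRCm38. Columns were assigned to plates by matching experiment and pool numbers, on which tissue and age rest, and 0 columns were left unassigned. No further cell filter or doublet caller was used.

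A cell was positive for a gene at 5 or more counts and 0.5% of what its plate held of the gene. Cells of 1 class were summed per plate (at least 3 cells of each class) and tested with edgeR 4.0.16 (R 4.3.3, limma 3.58.1): quasi-likelihood test, TMM, filterByExpr, plate as block because both classes come from the same plate, and Benjamini-Hochberg adjustment over all genes, threshold 0.05. The code was tested on simulated data. Correlations used log2(CPM + 10). Named genes are all 10 members, the genes that define classes, the 10 most correlated other genes and the listed goblet genes past the threshold. Alternatives covered the limits, DESeq2 1.42.0, RLE size factors, no filter, no block, each plate left out and, chosen after seeing the data, cells weighted alike, cells without Paneth genes and Chgb-low cells. Members and lists were chosen with earlier results of these data known.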

Additional observations from a re-analysis of the deposited data

Results flagged for a closer look

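In the comparison of cells positive for Lyz1 or Defa24 with other cells, 2 members went one way on every duodenum plate and the opposite way on the jejunum plate, and neither difference between the tissues was tested. Muc2 made up 108, 36.2 and 108 CPM of the positive sums of duodenum plates 1, 2 and 3 against 39.9, 0.288 and 5.86 CPM in the others, but 9.79 CPM against 19.3 CPM in the jejunum, where 1 of 15 positive and 1 of 48 other cells carried the gene. Guca2b stood at 2620, 291 and 336 CPM against 190, 40.6 and 13.1 CPM in the duodenum and at 68.9 CPM against 95.4 CPM in the jejunum. The opposite order of Guca2b holds for summed CPM alone: in the jejunum 26.7% of the class and 10.4% of the other cells were Guca2b-positive, and the median cell held 2.64 against 1.20 CPM. The jejunum is 1 plate, and its Muc2 counts came almost wholly from 2 cells.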

How the results depend on the processing

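Counts of called genes depended strongly on the tool and on single plates. For Chgb, 504 genes became 2591 with DESeq2, 2019 with limma on cells weighted alike, 283 without Paneth-gene-positive cells and 113 to 290 with 1 plate left out. For Neurog3, 3 became 804 with DESeq2, 0 at 1 or more counts, 0 with limma, 0 among Chgb-low cells and 0 to 3 with 1 plate left out. For the Paneth genes, 1 became 4 when both genes had to be positive, 8 at 1000 CPM, 924 with DESeq2, 0 with RLE, 3 without the filter, 7 with limma and 0 with any plate left out. For Muc2, 5 became 10 at 100 CPM, 1542 with DESeq2, 11 without the filter and 0 (without plate 1) to 20 with 1 plate left out. For tissue, 0 became 731 with DESeq2, 9 without the filter and 0 to 10 with 1 duodenum plate left out, and for age 0 became 920 and 226. Without the replicate block, which pairs the classes of a plate, 363 genes passed for Chgb, 0 for Neurog3, 1 for the Paneth genes and 2 for Muc2. Spink4 lost its Paneth call (adjusted p = 0.194) and Spink4 and Guca2a their Muc2 call (0.139 each), and Zg16 turned to 1.50 in the Neurog3 comparison. The share of cells with 3 or more members was 92.4% at 5 counts alone and 39.3% at 100 CPM. RLE moved the median fold change of all genes in the Muc2 comparison from -0.80 to -0.65.

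Log2 fold changes that turned sign were all of members that had not passed. In the Neurog3 comparison Tff3, Fcgbp and Spink4 were 0.30, 0.66 and 0.41 at 1 or more counts and 0.24, 0.10 and 0.64 without plate 1, the highest values with 1 plate left out, where the lowest were -0.61 (without plate 4), -0.79 (without plate 2) and -1.73 (without plate 4), and Zg16 was 0.07 with limma. Spdef turned in the Paneth comparison to 1.24 (both genes), 0.35 (1000 CPM), 0.14 (limma), 0.11 (without plate 3) and 0.16 (without plate 4; lowest -0.79, without plate 2), and in the Muc2 comparison to -1.59 without plate 3 (highest 2.07, without plate 2). Between tissues Zg16 was 0.02 with limma and Guca2a 0.05 without plate 1 (lowest -1.27, without plate 2). With age, DESeq2, RLE and limma gave 0.05, 0.05 and 0.57 for Tff3, 0.06, 0.06 and 0.67 for Agr2, and 0.02, 0.02 and 0.95 for Fcgbp. The cause of these changes was not tested. Leaving out a plate was not possible for age, nor the jejunum plate for tissue, for want of residual degrees of freedom or of the group. The counts of Clca1, Zg16 and Spdef came from few cells, and the part of depth in this was not tested.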
